A study of Mus musculus with 13 samples.

Results

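The dual-specificity MAP kinase phosphatases described here were 10 genes of the Dusp family, *Dusp1*, *Dusp2*, *Dusp4*, *Dusp5*, *Dusp6*, *Dusp7*, *Dusp8*, *Dusp10*, *Dusp16* and *Dusp22*, out of 24445 gene symbols in the table. They were selected on measured values of these same data: the selection names *Dusp8* and follows the family over the 4 groups, without naming a comparison. Differences between genotypes are therefore given for these genes as values with no p-value, whereas differences between time points were tested. Bone marrow-derived macrophages (BMDMs) were grown from marrow cells of female mice in medium conditioned by L929 fibroblasts, and all of them were stimulated with lipopolysaccharide (LPS), a component of the bacterial outer membrane. Control mice (labelled WT, described by the study as Acly fl/fl without Cre) were compared with AclyM-KO mice (labelled KO), in which Cre made from the myeloid gene *Lyz2* deletes floxed *Acly*, the enzyme that cleaves citrate to acetyl-CoA. The ages of the mice are not given in the sources used here. RNA-seq gave 3 control and 3 AclyM-KO libraries after 3 h LPS, and 4 control and 3 AclyM-KO libraries after 24 h LPS. Unstimulated cells were not analysed here, so no response to LPS itself can be given.

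MAP kinases (ERK, JNK and p38) are switched on by phosphorylation of a threonine and a tyrosine, and the phosphatases of this family remove both phosphates. Several of them are themselves induced by the signal they end, which makes them feedback brakes on cytokine production in macrophages. *Dusp1*, *Dusp2*, *Dusp4* and *Dusp5* encode inducible nuclear enzymes, *Dusp6* and *Dusp7* cytoplasmic enzymes that prefer ERK, and *Dusp8*, *Dusp10* and *Dusp16* enzymes that prefer JNK and p38. *Dusp22* encodes a small atypical member that lacks the domain with which the others dock on MAP kinases.

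The 250 bases before the start site in the RefSeq promoter table are shown for *Dusp8*, *Dusp1* and *Dusp5* (RefSeq, GRCm38.p6, 5′ to 3′ on the strand of the gene). Among the genes searched, these are the ones with a cAMP response element or a serum response element. *Dusp8* and *Dusp1* were higher in AclyM-KO macrophages at 3 h, and *Dusp5* fell between 3 h and 24 h. *Dusp6* was also higher at 3 h and *Dusp2* fell further, and their sequences held no match to the motifs searched. Capitals mark the cAMP response element TGACGTCA in *Dusp8* (chr7:142095285-142095534, minus strand) and *Dusp1* (chr17:26508473-26508722, minus strand), and matches to the serum response element in *Dusp5* (chr19:53528895-53529144, plus strand).
Dusp8: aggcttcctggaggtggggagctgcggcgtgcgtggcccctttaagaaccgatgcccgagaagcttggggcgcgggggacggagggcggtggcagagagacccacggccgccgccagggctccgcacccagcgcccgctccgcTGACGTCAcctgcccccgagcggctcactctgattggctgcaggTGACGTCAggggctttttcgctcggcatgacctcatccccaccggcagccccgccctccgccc
Dusp1: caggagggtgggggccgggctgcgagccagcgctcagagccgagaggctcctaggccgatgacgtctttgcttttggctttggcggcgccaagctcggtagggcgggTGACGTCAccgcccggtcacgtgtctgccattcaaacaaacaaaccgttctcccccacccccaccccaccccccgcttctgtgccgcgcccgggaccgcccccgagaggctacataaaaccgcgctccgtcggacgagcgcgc
Dusp5: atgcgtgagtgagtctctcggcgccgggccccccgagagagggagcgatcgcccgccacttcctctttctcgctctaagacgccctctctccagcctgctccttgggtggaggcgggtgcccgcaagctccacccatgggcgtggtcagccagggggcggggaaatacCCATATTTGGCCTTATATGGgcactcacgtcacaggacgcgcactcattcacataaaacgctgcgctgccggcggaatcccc

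Windows from 250 bases before to 50 bases after the start site were held for 9 of the 10 genes, all but *Dusp4*, and were searched on both strands. With the base at that start site as 1 and the base before it as -1, TGACGTCA began at positions -107 and -63 of *Dusp8* and -143 of *Dusp1*, and 1.79% of 32851 promoter windows of the same length hold it. The serum response element began at -82 and -72 of *Dusp5*, with both matches side by side, against 1.63% of windows. Overlapping matches to the NF-kB motif began at -240 and -239 of *Dusp22*, against 5.8% of windows. The AP-1 letters TGACTCA, which 5.2% of windows hold, were in none of the 9 windows. These matches are a description of the sequence. The GENCODE transcripts paired with the counted RefSeq transcripts start 12 bases from that site in *Dusp8*, 47 in *Dusp1* and 36 in *Dusp5*. The whole gene, with all its transcripts, spans chr7:142079487-142095907 for *Dusp8*, so that its window lies inside the span, chr17:26505591-26508472 for *Dusp1* and chr19:53529145-53541809 for *Dusp5*.

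Total counts were 21274102 to 59577343 per library except in control 24 h replicate 1, which held 34467 counts. In that library 1 count stood for 22.4 CPM (the count scaled to a common library size), 6 of the 10 phosphatases were at 0, and the highest of them, *Dusp1*, had 5 counts. It was left out of the fit, so the values below rest on 12 libraries with n = 3 in each group. Its return moved no log2 fold change of the 10 genes by more than 0.0148 and changed 0 calls. A library with so few counts has little weight in the fit, so this could hardly have come out otherwise. *Acly* itself was at 104, 107 and 106 CPM in control and 37.7, 46.2 and 41.5 CPM in AclyM-KO libraries at 3 h, and at 113, 109 and 107 against 30.1, 30.5 and 29 CPM at 24 h, so the labels matched the deletion. All 9 macrophage markers were detected in every group, and the summed lymphocyte markers stayed at or below 0.306 CPM. The 5 fibroblast markers summed to 0 to 0.347 CPM in control and 0.0961 to 0.656 CPM in AclyM-KO libraries at 3 h. At 24 h they summed to 0.656 to 1.11 against 0.724 to 1.28 CPM, above the 3 h range of each genotype. Their part in the differences with time was not tested. Of 8 neutrophil markers, 3 had a mean of at least 1 CPM at 3 h and 2 at 24 h, with *Ly6g* and *Retnlg* at 0 in each group, and they summed to 11.2 to 13 CPM in control and 11 to 13.6 CPM in AclyM-KO libraries at 3 h, and to 3.11 to 4.24 against 3.42 to 3.94 CPM at 24 h. The 5 dendritic cell markers summed to 1.54 to 1.78 CPM in control and 1.90 to 2.69 CPM in AclyM-KO libraries at 3 h, which did not overlap, and to 0.382 to 0.574 against 0.563 to 0.788 CPM at 24 h, and their part in the differences between genotypes was not tested. The summed macrophage markers were 10920 to 11040 CPM in control and 7917 to 8848 CPM in AclyM-KO libraries at 3 h, and 6054 to 6355 against 4552 to 4656 CPM at 24 h. Without *Lyz2*, the gene that drives the Cre, the other 8 summed to 5660 to 5821 CPM in control and 5646 to 5906 CPM in AclyM-KO libraries at 3 h, and to 3666 to 3835 against 3608 to 3796 CPM at 24 h, so they overlapped between genotypes and were lower at 24 h. The part of this fall in the differences with time below was not tested. In such bulk libraries, fewer cells that express a gene and less RNA per cell cannot be told apart. Nothing in the labels says that libraries of a group came from separate mice, so p-values measure the spread between these samples.

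All 10 phosphatases passed the filter on low counts. At 3 h *Dusp2* gave most of the summed level of the family, and at 24 h *Dusp1* gave the largest single share. The comparison between genes was made in CPM per kb of transcript, because the transcripts are 1617 to 4804 bases long. In control macrophages at 3 h the level was 48.7 ± 3.49 CPM per kb (SD, n = 3) for *Dusp2*, 13.1 ± 0.296 for *Dusp16*, 10.4 ± 0.376 for *Dusp1* and 4.18 ± 0.187 for *Dusp7*. *Dusp22* followed at 2.68 ± 0.321 CPM per kb, then *Dusp4* at 1.33 ± 0.146, *Dusp5* at 1.07 ± 0.120 and *Dusp6* at 0.894 ± 0.160, and the ranges overlapped between *Dusp4* and *Dusp5* and between *Dusp5* and *Dusp6*. *Dusp10* at 0.232 ± 0.0479 and *Dusp8* at 0.0376 ± 0.0221 CPM per kb were the least abundant. Over the same libraries *Dusp2* held 58.9% ± 1.90 of the summed level per kb and *Dusp1* 12.7% ± 0.987.

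In AclyM-KO macrophages at 3 h, *Dusp2* held 51.0% ± 2.20 and *Dusp1* 19.1% ± 3.17 of the summed level per kb (SD, n = 3). *Dusp1* there lay above *Dusp16* (19.5 ± 3.77 against 15 ± 0.346 CPM per kb, ranges apart) and *Dusp4* above *Dusp22* (3.91 ± 0.303 against 2.74 ± 0.168 CPM per kb, ranges apart), which was the reverse of the order in control. At 24 h the share of *Dusp2* was 3.78% ± 0.699 in control and 3.28% ± 0.632 in AclyM-KO libraries, and that of *Dusp1* was 34.8% ± 1.8 and 43.1% ± 3.05. *Dusp16*, *Dusp7* and *Dusp4* came next in control at 24 h, at 5.71 ± 0.524, 5.54 ± 0.474 and 5.33 ± 0.164 CPM per kb, with ranges that overlapped. The summed level per kb was 82.6 ± 3.38 CPM per kb in control and 102 ± 3.90 in AclyM-KO macrophages at 3 h, and 36.8 ± 1.40 against 47.3 ± 2.09 at 24 h. It was lower at 24 h than at 3 h in both genotypes and higher in AclyM-KO at both times, with ranges that did not overlap. Of the 10 genes, *Dusp1* differed most between genotypes in CPM per kb, at 10.4 in control against 19.5 in AclyM-KO at 3 h. At 24 h it was at 12.8 against 20.4 CPM per kb. Since the genes were selected on these data, the higher sum in AclyM-KO is not read as a change of the whole family.

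**Figure D1:**
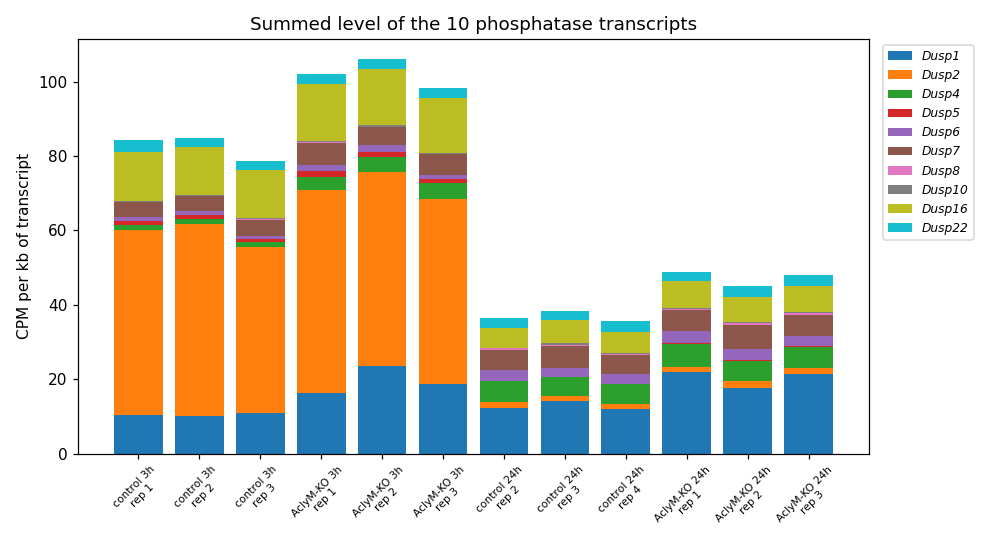
Summed level of the 10 phosphatase transcripts in each of 12 libraries, as stacked bars in CPM per kb of transcript (linear axis from 0), with 1 colour per gene. *Dusp2* makes up most of the bars at 3 h and little of those at 24 h, where *Dusp1* is the tallest part.

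The time comparison asked which phosphatases differed between 3 h and 24 h of LPS within a genotype. Calls needed an adjusted p below 0.05 together with a log2 fold change larger than 0.75 in size. In control macrophages *Dusp2*, *Dusp5* and *Dusp16* fell and *Dusp4*, *Dusp6* and *Dusp8* rose, while *Dusp1*, *Dusp7*, *Dusp10* and *Dusp22* were not called. That is 3 of 10 genes in each direction, where 20.9% of all 11904 genes were called higher and 19.5% lower. In AclyM-KO macrophages 3 fell and 2 rose, where 21.9% of all genes were called higher and 20% lower. The counts were thus not far from those of genes in general, and the size of the changes in single phosphatases is what is described here. The median log2 fold change of the 10 genes was 0.23 in control and 0.04 in AclyM-KO macrophages, against 0.04 in both for all genes tested.

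*Dusp2*, also known as PAC-1 and first found in activated immune cells, fell most. Its level was 80.5, 83.2 and 72.4 CPM in control libraries at 3 h and 2.7, 2.09 and 1.95 CPM at 24 h. In AclyM-KO libraries it was 88.1, 84.3 and 80.5 CPM at 3 h and 2.03, 2.73 and 2.72 CPM at 24 h. Genotypes overlapped at both times, and every library at 24 h was far below every library at 3 h. The fall was 36.3-fold in control (log2 fold change -5.18, SE 0.10, edgeR quasi-likelihood test with Benjamini-Hochberg adjustment, adjusted p = 3.2e-28) and 33.8-fold in AclyM-KO macrophages (-5.08, SE 0.10, adjusted p = 7.88e-28).

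*Dusp5*, whose product binds and inactivates ERK in the nucleus, was at 2.43, 2.99 and 2.54 CPM in control libraries at 3 h and at 0.41, 0.213 and 0.275 CPM at 24 h. In AclyM-KO libraries it was at 3.79, 3.23 and 2.88 CPM at 3 h and at 0.675, 0.281 and 0.729 CPM at 24 h. The times did not overlap in either genotype, and the level at 24 h rested on 5 to 19 counts per library. It fell 8.97-fold in control (log2 fold change -3.16, SE 0.29, edgeR adjusted p = 2.89e-11) and 5.78-fold in AclyM-KO macrophages (-2.53, SE 0.26, edgeR adjusted p = 5.15e-10). Exons of *Dusp5* share 547 bases with a gene on the opposite strand, AC137853.2, and the strand setting of the counting is not given in the sources used here.

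*Dusp16*, whose product acts mainly on JNK, was at 53.4, 51 and 52.1 CPM in control libraries at 3 h and at 20.9, 25 and 22.5 CPM at 24 h. In AclyM-KO libraries it was at 61.6, 59.3 and 59.1 CPM at 3 h and at 28.7, 26.4 and 27.9 CPM at 24 h. The 4 groups were all apart from each other, with AclyM-KO the higher at each time by a small step. The fall with time was 2.29-fold in control (log2 fold change -1.20, SE 0.07, edgeR adjusted p = 1.89e-16) and 2.17-fold in AclyM-KO macrophages (-1.12, SE 0.07, edgeR adjusted p = 8.56e-16).

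*Dusp8*, a phosphatase of JNK and p38 best known from brain and heart, rose from a few counts per library. In control libraries it had 3, 2 and 6 counts at 3 h, or 0.149, 0.0935 and 0.299 CPM, and 39, 49 and 125 counts at 24 h, or 1.6, 2.09 and 1.91 CPM. In AclyM-KO libraries it had 20, 17 and 20 counts at 3 h, or 1.02, 0.743 and 0.961 CPM, and 50, 50 and 72 counts at 24 h, or 1.88, 2.01 and 2.76 CPM. The control libraries at 3 h were the lowest of all 12 and the AclyM-KO libraries at 3 h lay between them and the 24 h libraries of both genotypes, which overlapped. It rose 10.2-fold in control (log2 fold change 3.35, SE 0.36, edgeR adjusted p = 1.14e-09) and 2.45-fold in AclyM-KO macrophages (1.29, SE 0.26, edgeR adjusted p = 4.24e-05).

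*Dusp4*, a nuclear enzyme induced by ERK signalling, was at 3.82, 3.93 and 3.19 CPM in control libraries at 3 h and at 15, 14.1 and 14.8 CPM at 24 h. In AclyM-KO libraries it was at 9.78, 10.9 and 11.4 CPM at 3 h and at 16.6, 15.2 and 15.5 CPM at 24 h. The order of the groups was that of *Dusp8*, with control at 3 h lowest and AclyM-KO at 3 h in between, on 64 or more counts in every library. *Dusp4* rose 4.00-fold in control (log2 fold change 2.00, SE 0.11, edgeR adjusted p = 8.74e-17). In AclyM-KO macrophages it was 1.47-fold higher at 24 h (0.56, SE 0.09, edgeR adjusted p = 2.48e-06), past the adjusted p but under the fold threshold.

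*Dusp6*, the cytoplasmic ERK phosphatase, was at 2.98, 2.43 and 2.09 CPM in control libraries at 3 h and at 7.7, 6.26 and 7.59 CPM at 24 h. In AclyM-KO libraries it was at 4.71, 5.46 and 2.79 CPM at 3 h and at 9.01, 8.48 and 6.94 CPM at 24 h. AclyM-KO 3 h replicate 3 lay within the control range at that time. The rise was 2.89-fold in control (log2 fold change 1.53, SE 0.19, edgeR adjusted p = 1.05e-07) and 1.88-fold in AclyM-KO macrophages (0.91, SE 0.17, edgeR adjusted p = 4.73e-05), and without AclyM-KO 3 h replicate 3 the latter was 0.67 and no longer called.

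The remaining 4 phosphatases were not called with time in either genotype. *Dusp1*, which inactivates p38 and JNK and limits cytokine output of macrophages, differed by a log2 fold change of 0.29 in control (SE 0.13, edgeR adjusted p = 0.0493) and 0.06 in AclyM-KO macrophages (SE 0.12, edgeR adjusted p = 0.651). *Dusp7*, the ERK phosphatase nearest to *Dusp6*, differed by 0.39 in control (SE 0.09, edgeR adjusted p = 3.45e-04) and 0.13 in AclyM-KO macrophages (SE 0.09, edgeR adjusted p = 0.179), both under the fold threshold. *Dusp10*, a phosphatase of p38 and JNK, was at 0.496 to 1.35 CPM over the 12 libraries with overlap between all groups, on 10 to 48 counts. *Dusp22* was at 7.29 to 9.18 CPM and its log2 fold changes with time were 0.00 (SE 0.11) and 0.01 (SE 0.11), the smallest of the 10.

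**Figure D2:**
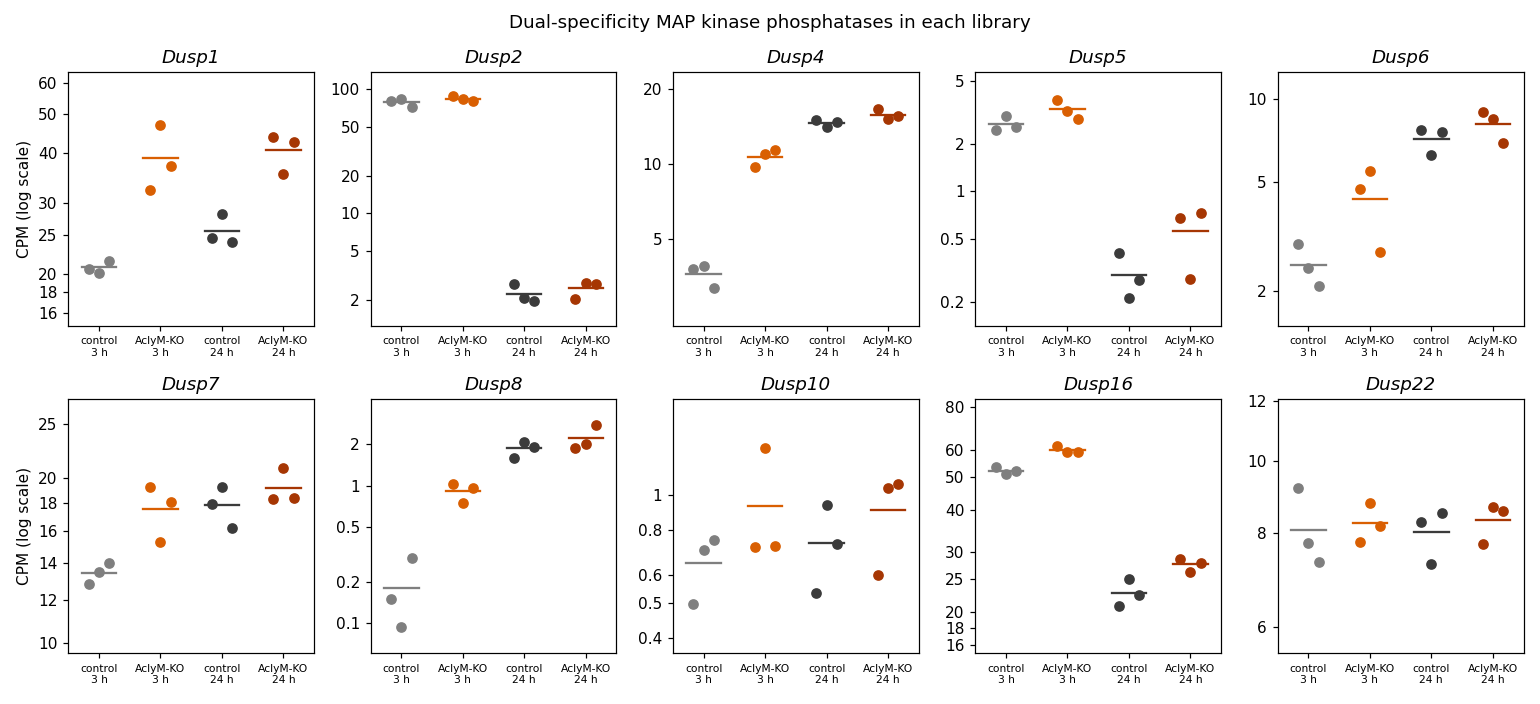
CPM of each phosphatase in each library, 1 panel per gene with its own log axis. Points are libraries (n = 3 per group, control 24 h replicate 1 left out) and lines are group means; *Dusp8* and *Dusp4* show control at 3 h lowest and AclyM-KO at 3 h between it and the 24 h groups.

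**Figure D3:**
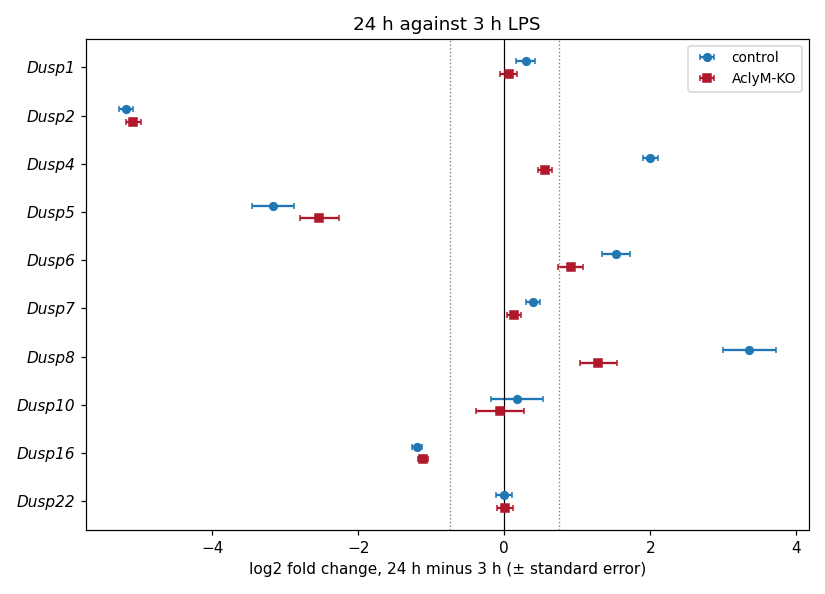
Log2 fold change between 24 h and 3 h LPS for each phosphatase in control (circles) and AclyM-KO (squares) macrophages, with bars of 1 standard error and dotted lines at 0.75 in both directions. *Dusp2* lies near -5 in both genotypes, while *Dusp8* and *Dusp4* lie further right in control (3.35 and 2.00) than in AclyM-KO macrophages (1.29 and 0.56).

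The genotype comparison asked how the deletion of *Acly* altered the phosphatases at each time. At 3 h 4 of the 10 were called higher in AclyM-KO macrophages, *Dusp8*, *Dusp4*, *Dusp1* and *Dusp6*, and 0 lower, where 1.41% of all genes were called higher and 0.596% lower. Since the genes may have been chosen on this comparison, nothing is read from that count, or from the signs and the median that follow. The estimates of all 10 were above 0, from 0.03 for *Dusp22* to 2.31 for *Dusp8*, with a median of 0.46 against -0.01 for all genes tested, and that of *Dusp22* changed sign under some of the alternative settings. In 5 of the 10 (*Dusp1*, *Dusp4*, *Dusp7*, *Dusp8* and *Dusp16*) every AclyM-KO library lay above every control library, where 15.3% of all genes showed this.

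*Dusp8* had the largest difference at 3 h, with a log2 fold change of 2.31 (SE 0.44), which is 4.95-fold. It rested on 57 counts over the 3 AclyM-KO libraries against 11 over the 3 control libraries, and the ratio of their pooled levels was 5.05 with an exact 95% interval of 2.62 to 10.7, which covers counting error only. *Dusp4* followed at 1.55 (SE 0.12), which is 2.93-fold. *Dusp1* was at 20.6, 20.1 and 21.6 CPM in control and 32.4, 47.1 and 37.2 CPM in AclyM-KO libraries, a log2 fold change of 0.91 (SE 0.13) or 1.88-fold, and its AclyM-KO libraries were both higher and more spread. *Dusp6* was higher by 0.79 (SE 0.21) on the log2 scale. This call was lost without control replicate 3 (0.69) and without AclyM-KO replicate 1 (0.74) or 2 (0.58), where the value fell below the fold threshold, and also without control replicate 2 (0.78), where the adjusted p missed its own.

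The other 6 phosphatases were not called at 3 h. *Dusp7* was at 12.8, 13.5 and 14 CPM in control and 19.2, 15.3 and 18.1 CPM in AclyM-KO libraries, which did not overlap, with a log2 fold change of 0.38 (SE 0.10). *Dusp16* was apart as well, at 0.20 (SE 0.06). *Dusp10* (0.54, SE 0.36), *Dusp5* (0.31, SE 0.21), *Dusp2* (0.10, SE 0.07) and *Dusp22* (0.03, SE 0.12) overlapped between genotypes.

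At 24 h 0 of the 10 phosphatases were called in either direction, where 0.899% of all genes were called higher and 0.479% lower. The estimates of all 10 were again above 0, from 0.04 for *Dusp22*, which changed sign under some settings here too, to 0.94 for *Dusp5*, and their median was 0.22 against 0.01 for all genes tested. Since the genes may have been chosen on differences between genotypes, nothing is read from these signs or this median. *Dusp1* stayed apart between genotypes, at 24.5, 28.2 and 23.9 CPM in control and 43.9, 35.4 and 42.6 CPM in AclyM-KO libraries. Its log2 fold change of 0.68 (SE 0.12), or 1.60-fold, lay under the fold threshold. *Dusp5* had a larger estimate (0.94, SE 0.37) on few counts and its genotypes overlapped. Without AclyM-KO 24 h replicate 2, *Dusp1* (0.77) and *Dusp5* (1.25) were both called. In 3 of the 10 (*Dusp1*, *Dusp4* and *Dusp16*) every AclyM-KO library lay above every control library, where 18.2% of all genes showed this.

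**Figure D4:**
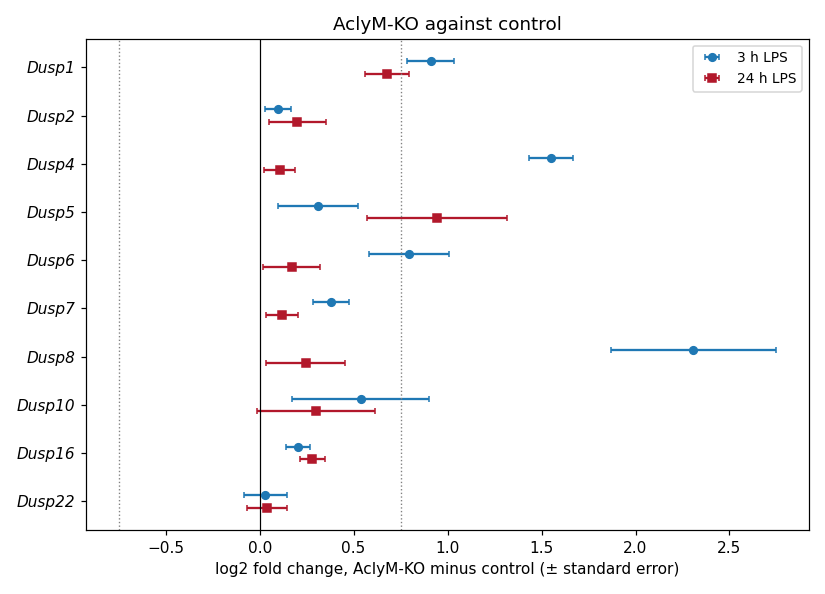
Log2 fold change of AclyM-KO against control for each phosphatase after 3 h (circles) and 24 h (squares) of LPS, with bars of 1 standard error and dotted lines at 0.75 in both directions. *Dusp8* (2.31) and *Dusp4* (1.55) are far right at 3 h and near 0 at 24 h (0.24 and 0.11), while *Dusp1* lies at 0.91 and 0.68.

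The difference between these genotype effects (24 h minus 3 h) was past the adjusted p threshold for 2 of the 10, where 9.53% of all genes were. It was -2.06 (SE 0.50) for *Dusp8* and -1.45 (SE 0.14) for *Dusp4* on the log2 scale. The difference for *Dusp1* was -0.23 (SE 0.17) and for *Dusp6* -0.62 (SE 0.26). For *Dusp8* at 24 h the ratio of pooled levels was 1.18 with an exact 95% interval of 0.960 to 1.45, on 172 AclyM-KO and 213 control counts. The estimates at 24 h were 0.24 (SE 0.21) for *Dusp8* and 0.11 (SE 0.08) for *Dusp4*. Since the selection may have used the values at 3 h, these differences are a description only.

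Among all 11903 other genes that passed the filter, those with the pattern most like *Dusp8* over the 12 libraries, by the root-mean-square difference of centred log2 CPM, were *Runx3* (0.38), *Mvd* (0.44) and *Arhgef10l* (0.45). The nearest phosphatase was *Dusp4* (0.58). *Mvd*, an enzyme of the mevalonate pathway, was at 5.16 ± 0.234 CPM in control and 16.5 ± 2.41 CPM in AclyM-KO macrophages at 3 h, and at 34.2 ± 2.18 and 27.9 ± 1.26 CPM at 24 h (SD, n = 3). It therefore shared with *Dusp8* the lowest level in control at 3 h and an intermediate one in AclyM-KO at 3 h. At 24 h the mean of *Mvd* was lower in AclyM-KO than in control, whereas that of *Dusp8* was not (2.216 against 1.865 CPM). *Runx3*, the nearest gene, was at 0.378 CPM in control and 0.894 CPM in AclyM-KO macrophages at 3 h. At 24 h it was at 2.28 and 2.52 CPM. The genes most like *Dusp1* were *Cdkn1c* (0.18), *Adamtsl5* (0.19) and *Htr2a* (0.19), each with a higher mean in AclyM-KO macrophages at both times, and the nearest phosphatase was *Dusp7* (0.35).

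The rest of the MAP kinase pathway was followed in 7 lists with 84 genes tested. Of these, 49 were called with time in control and 55 in AclyM-KO macrophages, 1 between genotypes at 3 h and 0 at 24 h. Of all genes, 20.9% were called higher and 19.5% lower with time in control, and 21.9% and 20% in AclyM-KO macrophages. Of 9 MAP kinases, 3 rose and 2 fell with time in each genotype. *Mapk7* (ERK5) rose with a log2 fold change of 1.97 in control (edgeR adjusted p = 4.28e-17) and *Mapk11* (p38 beta) fell with one of -1.87 (edgeR adjusted p = 2.78e-11). Of 6 MAP kinase kinases, 0 rose and 2 fell in each genotype, *Map2k3* and *Map2k4*, which activate p38 and JNK, with log2 fold changes of -1.73 and -1.74 in control. Among the 18 upstream kinases and their adaptors, 5 rose and 4 fell in each genotype, with *Map3k8* (TPL2, the kinase that couples LPS to ERK) at -1.39 and *Map3k4* at 2.42 in control. Of 10 kinases activated by MAP kinases, 2 rose and 5 fell in each genotype.

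Among 13 other dual-specificity phosphatases, 4 rose and 2 fell with time in control, and 5 rose and 3 fell in AclyM-KO macrophages. *Dusp14* fell furthest, with a log2 fold change of -5.03 in control (SE 0.41, edgeR adjusted p = 2.45e-12) and -2.86 in AclyM-KO macrophages (edgeR adjusted p = 4.03e-08). Its genotype effects at 3 h (-0.43) and 24 h (1.74) were not called, and they differed by 2.17 (SE 0.69, edgeR adjusted p = 0.0405). At 24 h *Dusp14* was at 0.041 to 0.128 CPM in control and 0.153 to 0.338 CPM in AclyM-KO libraries. One count stood for 0.0153 to 0.0512 CPM, so every difference that uses its 24 h level rests on few counts. Of 17 other brakes on the pathway, 4 rose and 7 fell in control, and 6 rose and 9 fell in AclyM-KO macrophages. *Tnfaip3* (A20, an inhibitor of NF-kB and MAP kinase activation) was at -2.50 and *Zfp36* (tristetraprolin, which destabilizes cytokine mRNAs) at -2.42 in control. Of 11 immediate early genes induced by ERK, 0 rose and 9 fell in control, and 1 rose and 8 fell in AclyM-KO macrophages, with *Egr1* at -2.82 and -3.05 and *Ier3* as the one that rose (0.93).

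Between genotypes, 0 genes of the lists of MAP kinases, MAP kinase kinases, upstream kinases, downstream kinases, other dual-specificity phosphatases and other brakes were called at either time. Of all genes, 1.41% were called higher and 0.596% lower at 3 h, and 0.899% and 0.479% at 24 h, so calls were rare in general. Some list genes passed the adjusted p under the fold threshold, in both directions. At 3 h these included *Zfp36l2* (log2 fold change 0.46, edgeR adjusted p = 5.62e-05) and *Map2k4* (-0.27, edgeR adjusted p = 6.96e-04). The lack of calls therefore does not show that these lists were unaffected. The one list gene called was the immediate early gene *Phlda1*, which was higher in AclyM-KO macrophages at 3 h (5.03 against 2.07 CPM, log2 fold change 1.28, SE 0.21, edgeR adjusted p = 7.53e-05). Its effect at 24 h differed from that at 3 h by -0.91 (SE 0.38, edgeR adjusted p = 0.133). Over the 7 lists, 13 of the 84 genes passed the threshold for this difference between times, where 9.53% of all genes did. The medians of the lists at 3 h ran from -0.03 for MAP kinase kinases to 0.19 for immediate early genes, and at 24 h from -0.02 to 0.09. They are not set against the median of the 10 phosphatases, which were selected on these data.

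**Figure D5:**
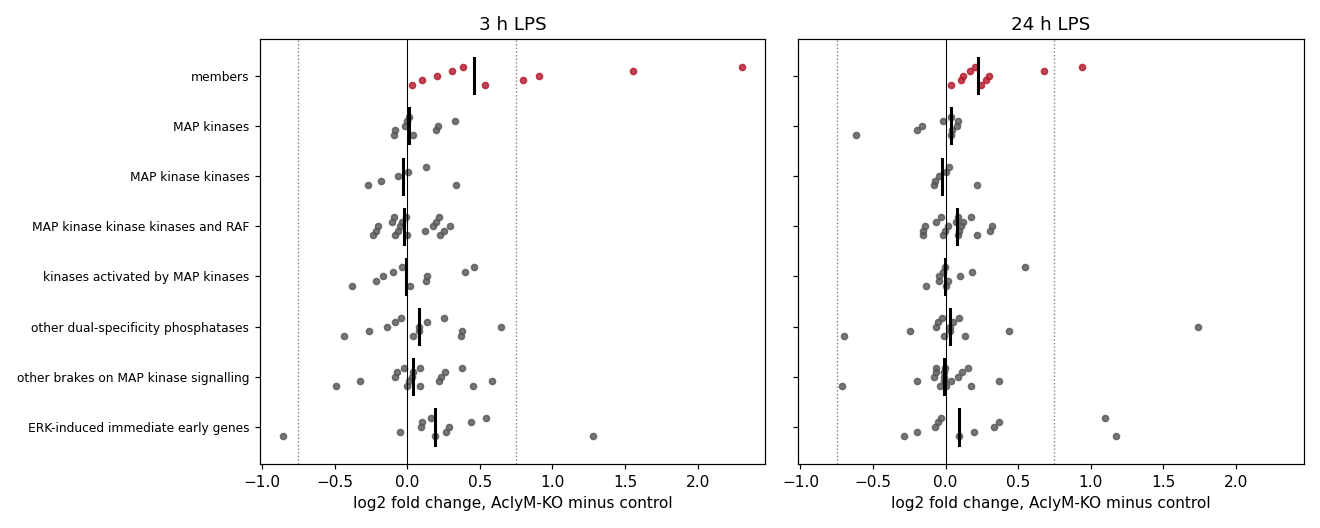
Log2 fold change of AclyM-KO against control after 3 h (left) and 24 h (right) of LPS for the 10 phosphatases (members, red) and the genes of 7 pathway lists (grey), with 1 point per gene, black bars at the medians and dotted lines at 0.75 in both directions. At 3 h the 4 called phosphatases and *Phlda1* lie beyond the right line; *Dusp5*, *Dusp14*, *Fosb* and *Egr2*, beyond it at 24 h, did not pass the adjusted p.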

How the data were processed

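RNA was measured in 13 BMDM libraries, grouped by genotype and LPS time from their labels. Libraries of mRNA kept the strand. Alignment by the authors used STAR 2.5.2b on mm10, and the submitters' processing notes also name CASAVA 1.8.2. After filtering in SAMtools, HOMER gave tags for each RefSeq transcript. The deposited table holds raw counts of 35745 transcripts, not normalized. The strand and isoform settings of the counting are not given in the sources used here. Symbols were matched for 35628 transcripts, and the 117 others (1.13% of counts) stayed in library sizes and tests.

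Where a symbol had several transcripts, the one with most counts in all libraries stood for it. *Dusp16* and *Dusp22* each had 2 transcripts with identical counts, and the other phosphatases 1. Counts of 12 libraries were fitted in R 4.3.3 with edgeR 4.0.16 (TMM, filterByExpr on the 4 groups, robust quasi-likelihood), with Benjamini-Hochberg adjustment over 19621 transcripts of 11904 genes with a symbol. A gene was called at an adjusted p under 0.05 and a log2 fold change beyond 0.75, the thresholds of the study, and for the interaction at the adjusted p alone. CPM are scaled by TMM. The script was tested on simulated data. DESeq2 1.42.0, which the study used, was an alternative, and the others were another scaling, no filter, 1 transcript per gene, a fold threshold of 1, only the groups compared, a replicate block, all 13 libraries, and leaving out each library. Control 24 h replicate 1 (34467 counts) was left out of the reported fit. One count stands for 0.0153 to 0.0512 CPM in the 12 libraries, and intervals on counts cover counting error only.

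The phosphatases, the pathway lists and the alternatives were chosen with earlier results of these data known. The genes named are all 10 phosphatases, *Acly*, at most 4 called genes per list, comparison and direction by fold change, and the 3 genes most like *Dusp8* and *Dusp1*. The values of *Mvd* and *Runx3* by group, and *Lyz2*, *Fosb* and *Egr2* beside other results, were added after the data were seen. Promoter windows came from RefSeq (GRCm38.p6).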

Additional observations from a re-analysis of the deposited data

Results flagged for a closer look

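In the control group at 24 h, 1 of the 4 libraries lay far from the other 3, by the gap to its neighbour divided by the range of the group, for 5 of the 10 phosphatases and for *Acly*. The limit was Dixon's critical value for 4 samples, which chance passes in about 1 in 20 groups. The ratio was 0.952 for *Dusp1*, 0.983 for *Dusp2*, 0.910 for *Dusp16* (each highest in that library), and 0.943 for *Dusp4*, 0.856 for *Dusp22* and 0.940 for *Acly* (each lowest). The library was control 24 h replicate 1 in each case, whose values for these genes rest on 0 to 5 counts and which was left out of the fit.

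The genotype effect at 24 h differed from that at 3 h past the threshold of the interaction test for *Dusp4* (-1.45 on the log2 scale) and *Dusp8* (-2.06). All 3 AclyM-KO libraries lay above all 3 control libraries at 3 h for both genes, whereas at 24 h they did so for *Dusp4* alone. These genes were selected on these data, and no p-value is given for them here.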

How the results depend on the processing

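Each result was recomputed under up to 20 alternatives. The 6 calls in control with time, and those of *Dusp2*, *Dusp5*, *Dusp8* and *Dusp16* in AclyM-KO macrophages, held their direction and threshold under every one. At a fold threshold of 1, 2 phosphatases rather than 4 were called between genotypes at 3 h, with 144 rather than 239 genes in all, and 70 rather than 164 genes were called at 24 h. Leaving out 1 library at a time gave 0 to 2 phosphatases called at 24 h, 3 to 4 at 3 h and 2 to 3 for the interaction. The 2 at 24 h came without AclyM-KO 24 h replicate 2, and the third for the interaction was *Dusp6* without AclyM-KO 3 h replicate 3 (-0.86). *Dusp6* was called for the interaction with no filter on low counts too (-0.65). The estimate for *Dusp8* at 3 h ran from 1.99 to 2.86, the latter without control 3 h replicate 3. DESeq2 gave no adjusted p for the interaction of *Dusp8*, which was left out of its count. The causes of these changes were not tested.

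Correlations of deviations were weak, at -0.03 to 0.06 for same-numbered libraries and -0.0645 to 0.0742 for the others. Between AclyM-KO 3 h and 24 h libraries, same numbers gave 0.0578, 0.0382 and 0.0404, and other numbers gave values below 0. Deviations sum to 0 within a group, so positive values for same numbers force values below 0 among the others. The highest value, 0.0742, joined control 3 h replicate 1 and control 24 h replicate 4, whose numbers in the sample titles differ. The count columns carry a second numbering of the libraries, which was not used here or for the block below. Whether libraries were paired, and whether the numbers mark such pairs, cannot be told from these values. With the replicate number as a block, 6, 5, 4, 0 and 2 phosphatases were called in the control time, AclyM-KO time, 3 h, 24 h and interaction comparisons, and 4724, 4981, 227, 144 and 838 genes in all, against 4806, 4992, 239, 164 and 1134 without it. Among the selected phosphatases, depth limits *Dusp8*, *Dusp5* and *Dusp10* most.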
